A study of Rattus norvegicus with 49 samples.

Results

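The genes described here build the protein-folding machinery of the endoplasmic reticulum (ER) and carry its stress response, the unfolded protein response, in rat liver. They are 40 named genes, measured by 1 probe set each, the one with the highest mean intensity among the probe sets annotated with that symbol alone. Of the 40, 39 were measured among 14217 genes in all. The remaining one, Ern1, the membrane sensor IRE1, had no probe set of its own and is not analysed here. By role, 10 are chaperones and their cofactors, 7 are enzymes of disulfide bonds and proline turns, 6 belong to ER-associated degradation (ERAD), 2 of the measured genes are stress sensors or their transcription factor, 9 form the translocon, and 5 belong to the signal peptidase and the oligosaccharyltransferase.

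Secreted proteins enter the ER through the Sec61 channel, lose their signal peptide, receive sugar chains and disulfide bonds, and fold with the help of chaperones such as Hspa5 (BiP). Proteins that fail to fold are sent back to the cytosol and degraded by ERAD. When unfolded proteins build up, the sensors Ern1, Atf6 and Eif2ak3 start the unfolded protein response, in which spliced Xbp1 and cleaved Atf6 switch on genes of folding and degradation. Hepatocytes make most of the plasma proteins, so their ER carries a large secretory load. The values here are transcript levels and hold neither the splicing of Xbp1 nor the cleavage of Atf6.

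The livers of 49 male Sprague-Dawley rats, 8 to 10 weeks old at the start, were profiled on 1 array per rat after 4 or 14 days on powdered feed. Group 1 ate ad libitum and was not fasted, and group 2 ate ad libitum and was fasted overnight. Groups 3, 4 and 5 were given 15%, 30% and 60% less food and were fasted overnight. Every combination of diet and time was represented by 5 rats, apart from the fed rats of day 14, of which there were 4. The sample labels and the study's methods leave group 1 unfasted, while the series' own design text has every animal fasted. Rats are numbered within a group in the order of deposit, and the numbers carry no other meaning. Group 2 served as the control of groups 1, 3, 4 and 5, so these comparisons share its rats. The labels give the day as the length of the diet and name no batch or date of processing.

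The median log2 intensity of the arrays ranged from 6.34 to 6.43, and arrays of the same group correlated with a median of 0.993 (lowest 0.989) over all probe sets. All 39 members had a mean above the dim level used here, a log2 intensity of 4.68, with means from 9.51 to 13.2. Brightness varies with the probe, so levels are not compared between genes. The hepatocyte markers were bright, with summed intensities from 166161 to 181805 over 9 genes in all rats, and 0 of the 9 lay below the dim level. Of 6 plasma and B cell markers, a cell type also rich in these ER genes, 0 were called in any comparison with group 2 (1 fell in the trend over food reduction at day 4), and their summed intensity ranged from 1746 to 2829. All sample labels but 1 name liver, while the study's methods speak both of rat hepatocytes and of homogenized tissues. The samples are read here as whole liver, so fewer cells of a type and less RNA per cell cannot be told apart.

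Short elements of 3 kinds near the start sites of genes are known as binding sites for the transcription factors of the unfolded protein response, and were searched on both strands of the RefSeq windows (build GRCr8) from 250 bases before to 50 bases after each start. Windows were found for 33 of the 40 members, and Hyou1 had 2 windows, giving 34. The ER stress response element (ERSE, CCAAT then 9 bases of any kind then CCACG) occurred in 8 of the 34 windows, 23.5%, against 0.0657% of all 33469 windows in the table. The ERSE-II element (ATTGG then 1 base of any kind then CCACG) occurred in 3 of the 34, 8.82%, against 0.0508% of all windows. The UPRE core (TGACGTG) occurred in 3 windows, those of Hspa5, Hyou1 and Ssr4, 8.82% against 1.81%, and the one in Hyou1 overlapped an ERSE-II. In the windows of the genes measured the shares were 0.136% (ERSE), 0.0831% (ERSE-II) and 2.25% (UPRE core). The members were named as genes of the response that these elements belong to, so the shares are a description and not a test.

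The ERSE and ERSE-II matches are shown because 11 of the 33 members with a window hold them. Each is written in the orientation of the element, with the match in capitals and 12 bases on either side.
Hspa5 ERSE: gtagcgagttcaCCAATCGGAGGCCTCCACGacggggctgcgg
Calr ERSE: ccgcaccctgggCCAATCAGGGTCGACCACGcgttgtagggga
Canx ERSE: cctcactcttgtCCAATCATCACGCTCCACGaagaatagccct
Dnajc3 ERSE: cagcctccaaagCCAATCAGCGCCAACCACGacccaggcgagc
Creld2 ERSE: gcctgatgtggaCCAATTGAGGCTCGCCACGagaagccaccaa
Ero1b ERSE: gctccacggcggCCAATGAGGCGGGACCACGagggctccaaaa
Xbp1 ERSE: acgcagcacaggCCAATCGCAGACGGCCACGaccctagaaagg
Hsp90b1 ERSE: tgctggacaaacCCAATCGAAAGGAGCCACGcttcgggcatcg
Hsp90b1 ERSE: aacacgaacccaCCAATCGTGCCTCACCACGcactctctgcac
Dnajb11 ERSE-II: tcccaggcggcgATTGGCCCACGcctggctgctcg
Herpud1 ERSE-II: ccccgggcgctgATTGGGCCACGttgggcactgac
Hyou1 ERSE-II: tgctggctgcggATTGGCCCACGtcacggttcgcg
Hyou1 ERSE-II: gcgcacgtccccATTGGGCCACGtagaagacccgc
The 9 ERSE matches fell in 5 of the chaperone genes, in 2 enzyme genes (Creld2 and Ero1b) and in Xbp1. The match in Hspa5 lies on the plus strand of chr3:38452973-38452991, from base -43 to base -25 before the start site, and that of Xbp1 on the plus strand of chr14:84604558-84604576, from -65 to -47. Those of Calr (chr19:40213135-40213153), Creld2 (chr7:121789239-121789257) and Ero1b (chr17:92941458-92941476) run against the direction of the gene. The ERSE-II of Herpud1 covers chr19:10614821-10614831 on the minus strand. The other ERSE matches cover chr10:35158069-35158087 (Canx), chr15:102432534-102432552 (Dnajc3), and chr7:23012451-23012469 and chr7:23012347-23012365 (Hsp90b1). The one at chr7:23012347-23012365 also runs against the direction of its gene. The other ERSE-II matches cover chr11:91672800-91672810 (Dnajb11), and chr8:53602694-53602704 and chr8:53602794-53602804 (Hyou1). Both matches of Hyou1 run against the direction of the gene. No translocon, signal peptidase or oligosaccharyltransferase window held either element.

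The 250 bases before the start are shown for 4 genes on which the results below turn, Hspa5 (chr3:38452766-38453015, plus strand), Creld2 (chr7:121789134-121789383, plus strand), Herpud1 (chr19:10614708-10614957, minus strand) and Sdf2l1 (chr11:97376628-97376877, plus strand). Capitals mark the matches, and the window of Sdf2l1 held none of the 3 elements as spelled here. The window of Herpud1 starts at a transcript whose start lies inside the span RefSeq gives the gene.
Hspa5 upstream: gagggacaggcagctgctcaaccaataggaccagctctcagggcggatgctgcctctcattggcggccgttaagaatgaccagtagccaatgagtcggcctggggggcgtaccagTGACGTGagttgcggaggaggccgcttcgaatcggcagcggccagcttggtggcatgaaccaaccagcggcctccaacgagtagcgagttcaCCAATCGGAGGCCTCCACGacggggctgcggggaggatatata
Creld2 upstream: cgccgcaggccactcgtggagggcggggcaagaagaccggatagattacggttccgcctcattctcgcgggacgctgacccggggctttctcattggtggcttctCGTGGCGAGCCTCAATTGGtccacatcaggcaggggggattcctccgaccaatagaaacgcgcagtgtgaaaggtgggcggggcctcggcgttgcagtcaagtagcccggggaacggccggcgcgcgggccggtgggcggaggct
Herpud1 upstream: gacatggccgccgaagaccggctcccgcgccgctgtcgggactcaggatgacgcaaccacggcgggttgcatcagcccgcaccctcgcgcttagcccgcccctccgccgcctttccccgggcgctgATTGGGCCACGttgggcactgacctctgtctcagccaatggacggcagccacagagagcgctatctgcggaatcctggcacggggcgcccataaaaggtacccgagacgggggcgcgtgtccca
Sdf2l1 upstream: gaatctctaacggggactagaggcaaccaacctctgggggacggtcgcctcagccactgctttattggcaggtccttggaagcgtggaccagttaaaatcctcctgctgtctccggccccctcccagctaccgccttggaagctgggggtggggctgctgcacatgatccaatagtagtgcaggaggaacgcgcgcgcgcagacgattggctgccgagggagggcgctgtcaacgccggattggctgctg

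Across the 10 groups of rats the members were most often highest in rats that had eaten. Of the 39, 29 had their highest group mean in group 1, 23 of them at day 4 and 6 at day 14, and 18 had their lowest in group 5 at day 14. The same counts were not made over all genes, so they describe the members and do not set them apart. The members' group means spanned a median of 0.49 on the log2 scale, against 0.30 for all genes, with a median SD within groups of 0.13 against 0.14.

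**Figure D1:**
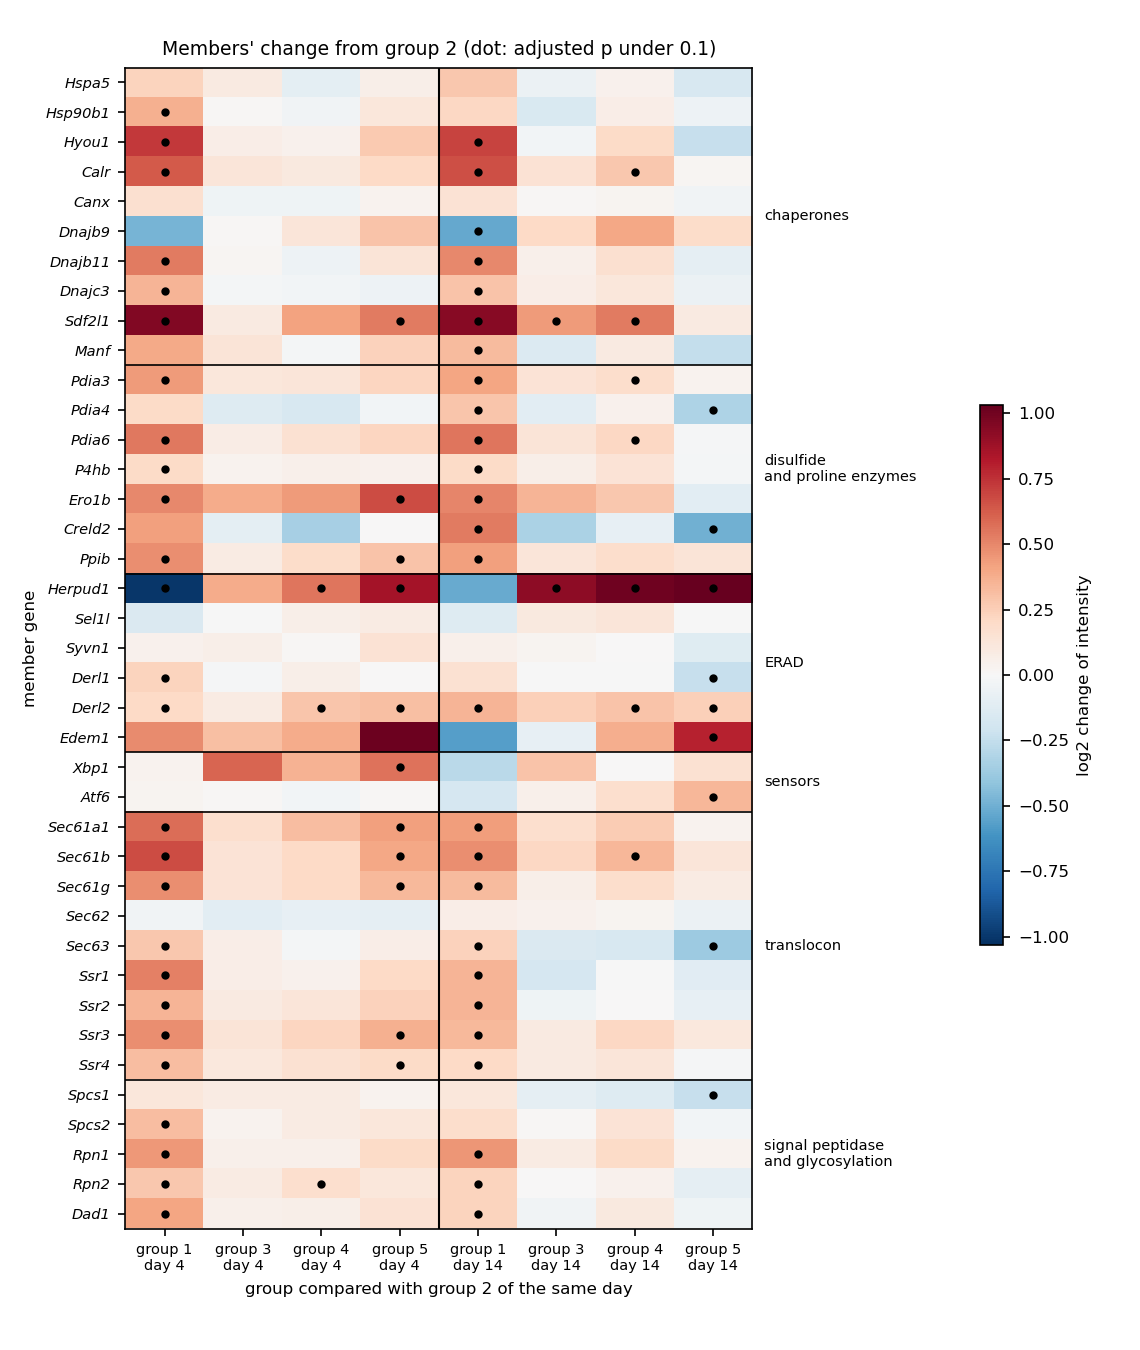
Log2 change of intensity of the 39 measured members (rows, by role) in groups 1, 3, 4 and 5 against group 2 of the same day (columns), with red for higher and blue for lower and a dot where limma's adjusted p was under 0.1. The columns of group 1 hold 26 dots at each day, 25 of them on red cells, and Herpud1 and Dnajb9 are both blue in group 1 and red in groups 4 and 5 at each day.

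The comparison of group 1 with group 2 asks what an overnight fast does in rats that eat freely. Fed rats had higher levels of 6 of the 10 chaperones at each day, of 5 and then 7 of the 7 disulfide and proline enzymes, and of 8 of the 9 translocon genes at each day. At day 4, limma called 25 of the 39 members higher and 1 lower in group 1 at an adjusted p under 0.1, where 9.76% of all genes were called higher and 11.5% lower. At day 14 it called 25 higher and 1 lower, against 7.26% and 5.92% of all genes. The members' median change was 0.35 and 0.29 on the log2 scale, beside 0.00 and 0.01 for all genes. The 2 days used different rats, and 22 genes were called higher at both, which is 22 of 25 on either list. The interaction of the fed difference with day called 0 members, with 1 at an unadjusted p under 0.05, and 0.0% of all genes in each direction.

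Sdf2l1, a cofactor of Hspa5 in the ER, had the largest rise of the members at both days. In group 1 at day 4 its log2 intensity was 10.59, 10.88, 10.92, 10.81 and 11.27, and in group 2 it was 9.49, 10.17, 10.34, 9.81 and 9.90. At day 14 it was 11.06, 10.59, 10.90 and 10.87 in group 1, and 9.95, 9.91, 10.11, 9.71 and 9.92 in group 2. Every fed rat lay above every fasted rat at both days. The log2 change was 0.95 ± 0.16 (SE, 1.93-fold, adjusted p = 0.00238 in limma) at day 4 and 0.94 ± 0.10 (1.92-fold, adjusted p = 0.000385) at day 14.

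Hyou1, an Hsp70-like chaperone that exchanges the nucleotide of Hspa5, followed. It read 10.28, 10.39, 10.40, 10.54 and 10.78 in group 1 at day 4, and 9.49, 9.65, 10.34, 9.57 and 9.68 in group 2. The third rat of group 2 overlapped the fed rats, and the others did not. At day 14 the fed rats, at 10.67, 10.40, 10.46 and 10.33, all exceeded the fasted rats, at 9.89, 9.91, 9.48, 9.74 and 9.84. Hyou1 was 1.66-fold higher in the fed rats at day 4 (log2 0.73 ± 0.15, adjusted p = 0.00764, limma) and 1.62-fold higher at day 14 (0.69 ± 0.10, adjusted p = 0.00224).

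Calr, a lectin chaperone of glycoproteins that binds calcium, separated the groups with little spread. The fed rats read 13.05, 13.11, 13.13, 13.16 and 13.24 at day 4 and 13.12, 13.12, 13.12 and 13.07 at day 14. The fasted rats of group 2 read 12.24, 12.49, 12.76, 12.48 and 12.57, then 12.39, 12.44, 12.38, 12.43 and 12.55. No fed rat overlapped a fasted one. The change was 0.63 ± 0.09 (adjusted p = 0.000697, limma) at day 4 and 0.67 ± 0.06 (adjusted p = 0.000108) at day 14. Its partner on the membrane, Canx, was 0.16 and 0.15 higher and was not called.

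Pdia6, a disulfide isomerase that also acts on the stress sensors, read 12.56, 12.48, 12.71, 12.66 and 12.78 in group 1 and 11.89, 12.06, 12.28, 12.14 and 12.09 in group 2 at day 4. At day 14 it read 12.69, 12.49, 12.65 and 12.62 against 11.98, 12.02, 12.14, 12.03 and 12.12. The groups did not overlap at either day, and the change was 0.55 at both (SE 0.08 and 0.07). The other enzymes of disulfide bonds and prolines called higher at both days were Pdia3 (0.44 and 0.41), P4hb (0.20 and 0.20), the oxidase Ero1b (0.50 and 0.50) and the prolyl isomerase Ppib (0.48 and 0.42). Pdia4 (0.20 and 0.29) and Creld2 (0.42 and 0.53) were called at day 14 alone.

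Of the 9 translocon genes, 8 were called higher at each day. Sec61b, a small subunit of the channel, read 12.02, 11.99, 12.19, 12.13 and 12.19 in fed rats and 11.29, 11.23, 11.70, 11.48 and 11.45 in fasted rats at day 4. At day 14 it read 12.06, 11.97, 12.02 and 11.85 against 11.43, 11.54, 11.38, 11.52 and 11.61. The ranges were apart at both days, by changes of 0.68 ± 0.09 and 0.48 ± 0.07. The pore Sec61a1 rose by 0.58 and 0.43, Sec61g by 0.48 and 0.32, the J-domain partner Sec63 by 0.28 and 0.24, and the signal sequence receptor subunits Ssr1, Ssr2, Ssr3 and Ssr4 by 0.20 to 0.52. Sec62, which serves transport after translation, was the exception at -0.03 and 0.07.

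The oligosaccharyltransferase subunits Rpn1 (0.45 and 0.46), Rpn2 (0.28 and 0.23) and Dad1 (0.41 and 0.23) were called higher at both days. The signal peptidase subunit Spcs2 was called at day 4 (0.32) and not at day 14 (0.18), and Spcs1, at 0.11 at both days, was not called. Among the J-domain cofactors of Hspa5, Dnajb11 (0.54 and 0.50) and Dnajc3 (0.35 and 0.29) rose at both days. Hsp90b1, the ER member of the Hsp90 family, was called at day 4 (0.36) and Manf, a secreted Hspa5 partner, at day 14 (0.33).

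Hspa5 itself, the chief chaperone and the usual gauge of ER stress, was not called. It read 12.73, 12.61, 12.57, 12.73 and 12.97 in group 1 and 12.20, 12.44, 12.87, 12.49 and 12.45 in group 2 at day 4, which overlapped. At day 14 the fed rats read 12.78, 12.60, 12.62 and 12.49, and the fasted rats 12.36, 12.45, 12.08, 12.34 and 12.51. The change was 0.23 ± 0.12 (adjusted p = 0.218, limma) and 0.28 ± 0.10 (adjusted p = 0.105). At day 4 it was called without rat 3 of group 2 (adjusted p = 0.0419) and when all groups were fitted together (0.0638), and at day 14 under 5 of 14 alternatives, with adjusted p from 0.043 to 0.263 over all of them.

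ERAD and the stress factors had 3 members called of 8 at day 4 and 1 at day 14. Herpud1, an ERAD scaffold of the ER membrane, was lower in the fed rats at day 4, at 10.48, 10.43, 11, 10.27 and 10.62 against 11.13, 11.55, 11.73, 11.54 and 11.85. The ranges did not overlap, and the change was -0.999 ± 0.15 (adjusted p = 0.00121, limma). At day 14 the fed rats read 10.19, 11.38, 11.53 and 10.43 and the fasted rats 11.16, 11.12, 10.85, 11.46 and 12.40. These ranges overlapped, and the change of -0.52 ± 0.34 was not called (adjusted p = 0.425).

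Dnajb9, a J-domain cofactor that brings Hspa5 to the sensor Ern1 and holds it inactive, was the other member called lower, at -0.53 at day 14 (adjusted p = 0.072, limma), with -0.48 at day 4 (adjusted p = 0.107). Derl2, a channel component of ERAD, was called higher at both days (0.20 and 0.35) and its relative Derl1 at day 4 (0.23). Sel1l and Syvn1, the core of the main ERAD ubiquitin ligase, changed by -0.15 to 0.05 and were not called. Edem1, a mannosidase-like factor that marks glycoproteins for ERAD, differed by 0.49 at day 4 and by -0.57 at day 14, with SEs of 0.28 and 0.31, and was called at neither.

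The total of 26 at day 14 rested in part on 1 fed rat, since it was 15 without rat 1 of group 1. At day 4, leaving out any rat gave 26 to 30 members. Some markers of other cell types moved with the fed state. Of 8 stellate cell and fibroblast markers, 2 were called higher in group 1 at day 4 (Col3a1 0.66 and Lrat 0.51), and 3 higher (Col3a1 0.70, Lrat 0.99 and Col1a1 0.60) and 1 lower (Rgs5 -0.54) at day 14. Their summed intensity ranged from 1985 to 3390 in group 2 and from 3079 to 5475 in group 1 over both days. Of 7 pancreatic acinar markers, 2 were called higher at day 4 (Amy2a3 0.23 and Pnlip 0.23) and 1 at day 14 (Amy2a3 0.26). The acinar sum ranged from 960 to 1434 in group 2 and from 1055 to 1627 in group 1, and 4 of the 7 (Amy2a3, Prss1, Cpa1 and Ctrb1) lay below the dim level. Of the 9 hepatocyte markers, 2 were lower at each day. The part of these markers in the result was not tested.

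Other genes of the pathway, outside the members, are read against the same 9.76% of all genes higher and 11.5% lower at day 4, and 7.26% and 5.92% at day 14. Of 34 other folding and glycan genes, 11 were called higher and 2 lower in the fed rats at day 4, and 6 higher and 1 lower at day 14. Erp29, an ER protein of the disulfide isomerase family, rose by 0.91 and 0.70, Uggt1, the folding sensor that returns glycoproteins to Calr and Canx, by 0.62 and 0.38, and the oligosaccharyltransferase subunit Ostc by 0.48 and 0.50. Of 24 other translocation genes, 7 rose and 3 fell at day 4, and 3 rose and 1 fell at day 14, among them the signal peptidase subunit Sec11c (0.39 and 0.42). Of 28 genes of transport from the ER to the Golgi, 10 rose and 4 fell, then 6 rose and 3 fell, with the retrieval receptor Kdelr3 at 0.46 and 0.48. Of 20 other ERAD genes, 3 rose and 6 fell at day 4, and 1 rose and 5 fell at day 14. Of 12 listed genes of the integrated stress response, to which Eif2ak3 belongs, 1 rose and 1 fell at day 4, and 1 fell at day 14. Trib3, a pseudokinase target of Atf4 and Ddit3, was lower at both (-0.68 and -1.05). These transcript levels do not show whether Eif2ak3 was active. Creb3l3, a liver transcription factor cleaved from the ER membrane, fell by 0.97 and 0.60. Of the list of 12 transcription factors and cofactors that holds it, 1 rose and 2 fell at day 4 and 1 fell at day 14.

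The comparisons of groups 3, 4 and 5 with group 2 ask what less food does beyond the overnight fast. At day 4 the calls grew with the reduction. In group 3, 0 of 39 members were called, with 3 at an unadjusted p under 0.05 (0.113% of all genes were called higher and 0.141% lower). In group 4, 3 were called higher and 0 lower (3.05% and 2.38% of all genes). In group 5, 11 were called higher and 0 lower (3.56% and 3.58%), with a median change of 0.20 beside 0.01 for all genes.

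Herpud1 led these calls, in the direction opposite to its change with feeding. At day 4 it read 12.23, 11.77, 12.31, 11.55 and 11.83 in group 3, 11.71, 12.34, 12.22, 12.15 and 12.13 in group 4 and 12.28, 12.35, 12.46, 12.64 and 12.36 in group 5, with group 2 as given above. Group 5 lay wholly above group 2, and groups 3 and 4 overlapped it. The change was 0.38 ± 0.16 (adjusted p = 0.434, limma) in group 3, 0.55 ± 0.14 (0.06) in group 4 and 0.86 ± 0.12 (0.00336) in group 5.

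Ero1b, the oxidase that recharges disulfide isomerases, read 10.46, 10.85, 10.90, 10.51 and 10.87 in group 5 at day 4, above all of group 2, at 9.76, 9.88, 10.18, 10.28 and 10.10. Group 3, at 10.32, 10.35, 10.63, 10.33 and 10.48, also lay above group 2, and group 4, at 10.53, 10.46, 10.26, 10.98 and 10.17, overlapped it. The change in group 5, 0.68 ± 0.12, was called (adjusted p = 0.0108, limma), and those of groups 3 and 4, 0.38 and 0.44, were not.

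In the fed rats Xbp1 and Atf6 had differed from group 2 by 0.04 and 0.03 at day 4 and by -0.28 and -0.18 at day 14, and were not called. With less food, Xbp1, the transcription factor spliced by Ern1, was 0.56 ± 0.16 higher in group 5 at day 4 (adjusted p = 0.0848, limma). It read 13.46, 12.71, 13.16, 13.25 and 13.41 there and 12.65, 12.56, 13.14, 12.38 and 12.46 in group 2, and 1 rat of each group lay within the range of the other. In group 3 it read 13.08, 13.06, 13.34, 13.37 and 13.36, a change of 0.60 that was not called (adjusted p = 0.142), and in group 4 it read 12.61, 13.55, 13.53, 12.51 and 12.79. The rats of group 4 fell far apart, with 2 near 13.5 and 3 below 12.8. The fed rats read 12.53, 12.60, 12.37, 12.80 and 13.08.

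At day 14 Xbp1 was called in no group. It read 12.67, 12.56, 12.48 and 12.70 in group 1 and 12.85, 13.11, 12.60, 12.84 and 12.99 in group 2. It read 12.83, 13.45, 13.29, 13.37 and 12.94 in group 3, 13.12, 12.50, 12.33, 13.20 and 13.28 in group 4 and 13.14, 13.44, 12.44, 13.15 and 13.03 in group 5. All these groups overlapped group 2. The changes were 0.30, 0.01 and 0.16 in groups 3, 4 and 5 (adjusted p = 0.277, 0.992 and 0.588, limma).

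Sdf2l1 was 0.54 ± 0.14 higher in group 5 at day 4, at 10.29, 10.47, 10.51, 10.54 and 10.57, with 1 rat of group 5 inside the range of group 2. The others called in group 5 were the translocon genes Sec61a1 (0.42), Sec61b (0.40), Sec61g (0.33), Ssr3 (0.36) and Ssr4 (0.20), with Derl2 (0.31) and Ppib (0.29). Sec61b in group 5 read 11.76, 11.85, 11.74, 11.84 and 11.94, clear of group 2. Derl2 read 11.11, 11.26, 11.21, 11.14 and 10.99 in group 5 and 10.97, 11.20, 11.29, 11.07 and 11.05 in group 4, against 10.72, 10.74, 10.85, 10.97 and 10.87 in group 2. Rpn2, an oligosaccharyltransferase subunit, was the third gene called in group 4, at 12.21, 12.22, 12.29, 12.22 and 12.27 against 12.01, 12.05, 12.12, 12.13 and 12.04, a change of 0.17 ± 0.05 (adjusted p = 0.0962, limma).

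The calls at day 4 depended on single rats. The count in group 5 was 11, and it was 6, 7, 4 and 6 without rats 1, 2, 4 and 5 of group 2 and 7, 6 and 5 without rats 2, 4 and 5 of group 5. In group 4, where 3 were called, 0 were called without rat 2 of group 2 or rats 2, 3 or 4 of group 4, 1 without rat 4 or 5 of group 2 or rat 5 of group 4, and 6 without rat 3 of group 2. In group 3, 1 was called without rat 3 of group 2, Xbp1. Herpud1 and Ero1b in group 5 were called under all 15 alternatives, with adjusted p from 0.00273 to 0.012 and from 0.0034 to 0.0505.

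At day 14 the members did not follow the reduction in the same way. In group 3, 2 were called higher and 0 lower (3.4% and 3.14% of all genes), and in group 4, 7 higher and 0 lower (6.52% and 6.24%). In group 5, 4 were called higher and 5 lower, against 8.88% and 10.9% of all genes, and the median change was -0.03. The members' shares called in group 5 were thus near those of all genes in both directions. Without rat 1 of group 2 the count in group 3 was 1, without rat 4 or rat 5 of group 4 the count in group 4 was 4, and without rat 4 or rat 5 of group 5 the total of 9 in group 5 was 5. In group 5 at day 14, 2 of 4 erythroid markers and 2 of 7 T and NK cell markers were also lower than in group 2, with erythroid sums from 1251 to 3503 against 7389 to 10665 and T and NK sums from 449 to 519 against 548 to 646. Of 7 pancreatic acinar markers, 1 was higher and 1 lower, with sums from 502 to 1101 against 960 to 1434. Of 4 cholangiocyte and 5 endothelial markers, 1 each was higher. Of the 9 hepatocyte markers, 2 were higher and 1 lower. The part of all these markers in the result was not tested.

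Herpud1 was higher in all restricted groups at day 14. It read 12.61, 12.35, 12.10, 12.25 and 12.30 in group 3, 12.61, 12.43, 12.27, 12.45 and 12.25 in group 4 and 12.36, 12.30, 12.57, 12.39 and 12.53 in group 5. A rat of group 2, at 12.40, lay among the restricted rats, and its other rats lay below all of them. The changes were 0.92 ± 0.23, 1.00 ± 0.23 and 1.03 ± 0.23 (adjusted p = 0.0456, 0.02 and 0.0101, limma), which is 1.9-fold, 2.0-fold and 2.04-fold. The call in group 3 was lost without rat 1 of either group (adjusted p = 0.117 and 0.107).

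Sdf2l1 was higher in groups 3 and 4 at day 14 and not in group 5. Group 3 read 10.37, 10.33, 10.13, 10.50 and 10.47 and group 4 read 10.36, 10.51, 10.35, 10.46 and 10.62, all above group 2. Group 5 read 9.89, 10.42, 9.85, 10.03 and 9.88, within the range of group 2 but for 1 rat. The changes were 0.44 ± 0.09 and 0.54 ± 0.08 (adjusted p = 0.0137 and 0.00217, limma), and 0.10 in group 5. Group 4 also had higher Sec61b (0.35, at 11.74, 11.87, 11.72, 12.04 and 11.85), Calr (0.27), Pdia6 (0.22) and Pdia3 (0.18). Derl2 rose by 0.29 there, reading 10.86, 10.97, 11.28, 11.14 and 11.11 against 10.87, 10.66, 10.78, 10.67 and 10.92 in group 2, with overlapping ranges.

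The genes called lower in group 5 at day 14 came from 4 of the roles. Creld2, a secreted disulfide isomerase induced by ER stress, read 9.36, 9.36, 9.39, 8.97 and 9.07 there, below all of group 2, at 9.78, 9.94, 9.42, 9.60 and 9.90. It fell by 0.50 on the log2 scale (SE 0.12, adjusted p = 0.0147, limma). Sec63 read 10.16, 9.98, 9.88, 10.04 and 9.78 against 10.31, 10.46, 10.29, 10.27 and 10.37, again without overlap, and fell by 0.37 (adjusted p = 0.00898). Its 4 probe sets fell by 0.28 to 0.45, and all were called in the fit of the probe sets. The dimmest of the 4 had a mean log2 intensity of 4.80, close to the dim level of 4.68. Pdia4 (-0.32), Derl1 (-0.24) and the signal peptidase subunit Spcs1 (-0.24) were the others.

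Besides Herpud1, the genes called higher in group 5 at day 14 were Edem1, Atf6 and Derl2 (0.24). Edem1 varied widely between rats, reading 12.06, 12.38, 12.21, 12.53 and 13.19 in group 5 and 12.11, 11.54, 10.68, 11.68 and 12.42 in group 2. The groups overlapped, and its change of 0.79 ± 0.29 (adjusted p = 0.0979, limma) was not called under 10 of 15 alternatives. At day 4 Edem1 was 1.01 ± 0.35 higher in group 5 and was not called (adjusted p = 0.145).

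Atf6, the sensor cleaved in the Golgi, read 10.35, 10.18, 10.31, 10.14 and 10.20 in group 5 and 9.73, 9.91, 9.66, 9.93 and 10.24 in group 2 at day 14, with 1 rat of group 2 inside the range of group 5. Its change of 0.34 ± 0.10 was called (adjusted p = 0.0431, limma), but the dimmer of its 2 probe sets changed by 0.03. With the mean of both probe sets Atf6 changed by 0.19 and was not called (adjusted p = 0.251). In group 1 at day 14 it read 9.74, 9.90, 9.44 and 9.80, in group 3 it read 9.69, 9.88, 10.06, 9.98 and 10.13, and in group 4 it read 10.22, 9.86, 9.91, 10.42 and 9.91. The changes of 0.05 and 0.17 in groups 3 and 4 were not called. At day 4 its readings were 9.84, 10.02, 10.16, 10.01 and 10.04 in group 1, 9.70, 10.11, 10.04, 9.91 and 10.19 in group 2, and 9.72, 10.31, 10.11, 10.11 and 9.76 in group 3. Group 4 read 10.07, 9.95, 10.05, 9.88 and 9.86 and group 5 read 9.79, 10.21, 9.89, 10.10 and 10.00. The groups overlapped at day 4, and groups 3, 4 and 5 differed from group 2 by -0.02 to 0.01.

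Hspa5 was not called in any restricted group at either day. It read 12.46, 12.57, 12.72, 12.59 and 12.58 in group 3, 12.49, 12.37, 12.47, 12.41 and 12.21 in group 4 and 12.31, 12.67, 12.59, 12.52 and 12.66 in group 5 at day 4. At day 14 it read 12.14, 12.34, 12.27, 12.38 and 12.32, then 12.30, 12.43, 12.29, 12.57 and 12.36, then 12.28, 12.23, 12.22, 12.08 and 12.12. All these groups overlapped group 2, and the changes ran from -0.17 to 0.09. In group 5 at day 14 the change of -0.17 ± 0.09 had an adjusted p of 0.248 (limma), and it was called without rat 3 of group 2 (-0.23, adjusted p = 0.0581).

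A linear trend over the 4 fasted groups was fitted at each day. At day 4, 13 members rose with the reduction and 0 fell (4.8% and 4.02% of all genes), with Edem1 at 0.16, Herpud1 at 0.14, and Ero1b and Sdf2l1 at 0.10 on the log2 scale per 10 percentage points less food. At day 14, 3 rose (Edem1 0.15, Herpud1 0.14, Atf6 0.06) and 5 fell (Creld2 -0.07, Sec63 -0.06, Pdia4 -0.05, Derl1 -0.04 and Spcs1 -0.04), against 10.8% and 13.2% of all genes, so the members' share called at day 14 was near or below that of all genes. The trends were not tested against each other. At day 4 leaving out 1 rat gave 11 to 19 calls, and at day 14 it gave 7 to 9.

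**Figure D2:**
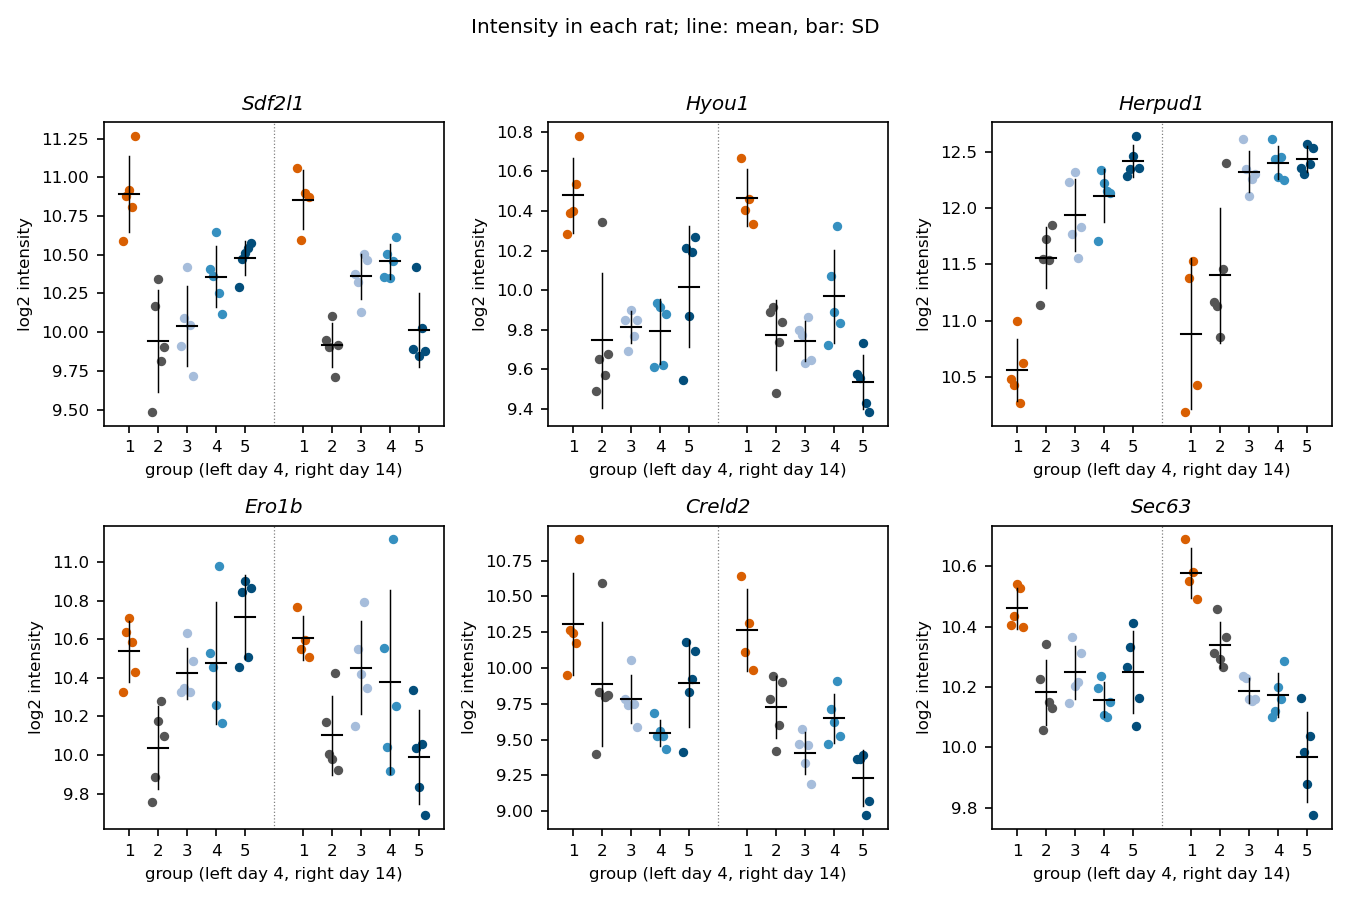
Log2 intensity of 6 members in each rat (points), by group (horizontal axis, 1 to 5, day 4 left and day 14 right), with the group mean (line) and SD (bar). Herpud1 is lowest in group 1, while Sdf2l1 and Hyou1 are highest there, and Creld2 and Sec63 reach their lowest means in group 5 at day 14.

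The interaction of group and day tests whether the change from group 2 differed between day 4 and day 14. For group 5 it called 2 members lower and 0 higher, against 1.2% and 0.844% of all genes, with a median of -0.22 over the members and -0.01 over all genes. Ero1b differed from group 2 by 0.68 at day 4 and by -0.11 at day 14, where group 5 read 10.34, 10.04, 9.84, 10.06 and 9.69 and group 2 read 10.17, 10.01, 9.98, 10.43 and 9.92. The difference between these changes was -0.79 ± 0.18 (adjusted p = 0.0533, limma). Sec63 had a difference of -0.44 ± 0.11 (adjusted p = 0.0717), from readings in group 5 at day 4 of 10.27, 10.33, 10.41, 10.07 and 10.16 that overlapped group 2.

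For groups 3 and 4 the interaction called 0 members, with 2 and 1 at an unadjusted p under 0.05, where 0.373% and 0.0492% of all genes were called higher and 0.218% and 0.0844% lower. The count of 2 in group 5 moved with single rats. It was 0 without rat 3 of group 5 at day 4, 7 without rat 3 of group 2 at day 4, and 1 without rats 2, 4 or 5 of group 2 or rats 1 or 2 of group 5 at day 4, and without rats 1, 2 or 5 of group 2 or rat 5 of group 5 at day 14. The other probe set of Ero1b, at a mean log2 intensity of 4.15, lay below the dim level and changed by 0.08. Calls for groups 1, 3 and 4 stayed at 0 whichever rat was left out.

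**Figure D3:**
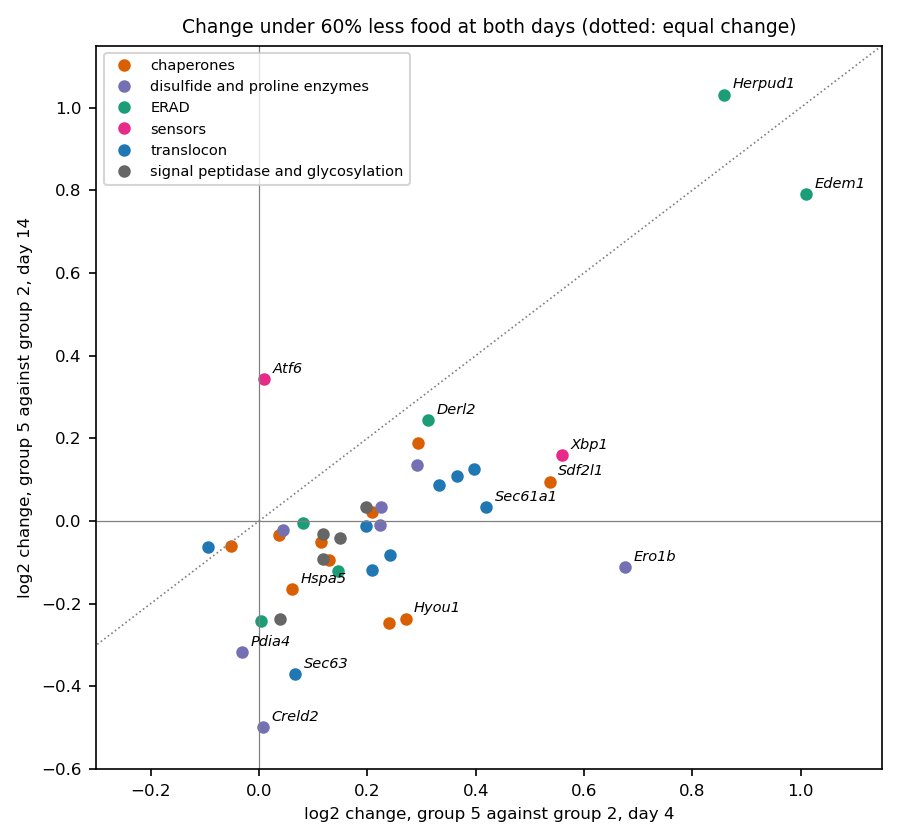
Log2 change of each measured member in group 5 against group 2 at day 4 (horizontal) and day 14 (vertical), coloured by role, with a dotted line at equal change. Of the 39 points 36 lie below the line, Herpud1, Atf6 and Sec62 lie above it, and Ero1b has the longest drop, from 0.68 to -0.11.

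Within group 5 itself, 12 members were lower at day 14 than at day 4 and 0 were higher, against 2.81% and 3.9% of all genes. In group 2, 0 members differed between the days, with 2 at an unadjusted p under 0.05 (0.00703% of all genes were called higher and 0.0% lower). The 12 were 5 chaperones (Hyou1 -0.48, Sdf2l1 -0.47, Manf -0.47, Hspa5 -0.37 and Calr -0.26), 5 enzymes (Ero1b -0.72, Creld2 -0.66, Pdia4 -0.43, Pdia6 -0.27 and Pdia3 -0.23), the ERAD ligase Syvn1 (-0.33) and Spcs1 (-0.23). Of the 12, Ero1b alone was also called in the interaction of group 5 with day. For the others, a change between the days that differs from that of group 2 was not shown. Day cannot be told apart from age or from any batch by day. The count was 6 without rat 2 of group 5 at day 4 (5 lower and 1 higher) or rat 1 at day 14, 5 without rat 5 at day 4 or rats 4 or 5 at day 14, and 3 without rat 3 at day 4.

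Of 4 erythroid markers, 2 were lower over the same interval, with log2 changes from day 4 to day 14 of group 5 of -1.92 for Hbb and -1.497 for Alas2, and the other two were not called (Epb42 -0.02 and Slc4a1 0.07). Their summed intensity ranged from 6435 to 10665 at day 4 and from 1251 to 3503 at day 14. Of the 9 hepatocyte markers, 1 was lower (Apoa1 -0.62) and 1 higher (Tat 0.56), with Alb at -0.01. The part of these markers in the result was not tested.

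Against the fed group 1, group 5 gives the whole span of feeding in the study without using group 2. Group 5 differs from group 1 in both the food given and the overnight fast, which this comparison cannot tell apart. At day 4, 17 members were lower and 4 higher in group 5 (10.5% and 13.3% of all genes), and at day 14, 29 were lower and 5 higher (18.9% and 15.2%). Both counts of lower genes shared 16 genes, which is 16 of 17 and 16 of 29. At day 14 all 7 enzymes of disulfide bonds and prolines and 8 of 9 translocon genes were lower, with Creld2 at -1.03, Hyou1 at -0.93, Sdf2l1 at -0.84 and Hspa5 at -0.44 (adjusted p = 0.00162, limma). Herpud1 was 3.62-fold higher at day 4 and 2.93-fold higher at day 14, Dnajb9 1.71-fold and 1.64-fold, and Xbp1 1.44-fold and 1.35-fold. Sel1l (0.23) was higher at day 4 and Edem1 (1.36) and Atf6 (0.52) at day 14. Of the 8 stellate cell and fibroblast markers, 4 were lower and 1 higher in group 5 at day 4, and 5 lower and 1 higher at day 14, with sums from 3079 to 5475 in group 1 and from 1754 to 3317 in group 5 over both days. At day 14, 4 of 7 T and NK cell markers were lower (sums from 603 to 649 in group 1 and from 449 to 519 in group 5), as were 3 of 4 Kupffer cell and macrophage markers (5166 to 6521 and 4020 to 5399) and 2 of 4 erythroid markers (6057 to 8074 and 1251 to 3503). At day 14, 1 of 7 pancreatic acinar markers was higher and 1 lower. Their sums ranged from 1055 to 1344 in group 1 and from 502 to 1101 in group 5. Of 5 endothelial markers, 1 was higher at day 14, and of 4 Kupffer cell and macrophage markers, 1 was higher at day 4. Of the 9 hepatocyte markers, 3 were higher and 0 lower at day 4, and 3 higher and 1 lower at day 14. The part of these markers in the result was not tested.

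Among pathway genes outside the members, group 5 is read against 3.56% of all genes higher and 3.58% lower than in group 2 at day 4, and 8.88% and 10.9% at day 14. The integrated stress response list had 2 of 12 genes higher in group 5 than in group 2 at day 4, and 4 higher and 1 lower at day 14. Nupr1, a small stress-induced nuclear protein, rose by 0.79 and then 2.17, Cebpb, a liver transcription factor, by 0.97 at day 14, and Ddit3 (CHOP) by 0.54 at day 14, while the amino acid enzyme Asns fell by 0.88. Of 34 other folding and glycan genes, 1 rose at day 4, and 9 fell at day 14, led by Nucb2 (-0.50) and the ER peroxidase Prdx4 (-0.34). Of 28 ER to Golgi genes, 2 rose and 1 fell, then 2 rose and 7 fell, with the cargo receptor Surf4 at -0.48 at day 14. Of 24 other translocation genes, 0 rose and 1 fell at day 4, and 5 fell at day 14, with Get1 at -0.46. Of 20 other ERAD genes, 3 rose and 2 fell at day 4, and 2 rose and 5 fell at day 14, with Vcp, the ATPase that pulls proteins out of the ER membrane, at -0.30.

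The last set of results asks which genes vary with Hspa5 from rat to rat once diet and day are taken out. Each gene's deviation from the mean of its group and day was correlated with that of Hspa5 over 49 rats, with 100000 permutations of the Hspa5 deviations within groups (two-sided). All 38 other members had a positive Pearson r, with a median of 0.52, beside -0.01 over all genes. Of the 38, 16 were called at an adjusted p under 0.1 with positive r and 0 with negative r, where 0.162% and 0.00703% of 14216 genes were called. Of the 100 genes with the highest r, 21 were members, which make up 0.267% of the genes compared. All points share 1 array per rat, so array quality is common to the genes correlated.

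Creld2 came first of all genes (r = 0.84, Spearman's rho = 0.76, permutation p = 1e-05 and 2e-05, adjusted p = 0.0237 and 0.0474). Manf was next (r = 0.83, rho = 0.76, permutation p = 1e-05 for each, the smallest that 100000 permutations can give), followed by Syvn1 (r = 0.74), Hyou1 (0.73) and Dnajb11 (0.73). Of the 10 genes with the highest r, 7 were members, with Ssr2 (0.65) and Ssr3 (0.64) completing them, and the others were Sec23b, a coat subunit of vesicles leaving the ER (0.69), the oligosaccharyltransferase subunit Tmem258 (0.64) and the cargo receptor Tmed9 (0.64). At the other end were Canx (0.06), Derl1 (0.07), Sec62 (0.15), Herpud1 (0.16), Derl2 (0.18), Sel1l (0.20) and Edem1 (0.20), 5 of the 6 ERAD members among them. Xbp1 stood at 0.31 and Atf6 at 0.45, and neither was called.

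The widest deviations of Hspa5 were in 2 rats of group 2 at day 4, rat 3 (0.38 from its group mean) and rat 1 (-0.29). In rat 3 Creld2 lay 0.71 and Manf 0.56 above the group mean. The members other than Hspa5, these 2 included, lay 0.25 above it on average. Without these 2 rats the median r of the members was 0.42 and 3 were called, Creld2 (r = 0.78, adjusted p = 0.0355), Manf (0.77) and Syvn1 (0.68). Within day 4 the median r was 0.58 and 0 of 38 were called, with Creld2 at 0.87, and within day 14 it was 0.39 and 2 were called, Manf (0.90) and Ssr2 (0.74). Within day 4 Syvn1 (r = 0.86) reached the smallest permutation p, 1e-05, and its adjusted p was 0.142. A gene alone at that p could not be called over 14216 genes. The count of 0 within day 4 thus depended in part on the number of permutations. The number called fell without the 2 rats and within each day, while r stayed above 0 for 35, 37 and 36 of the 38 members.

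**Figure D4:**
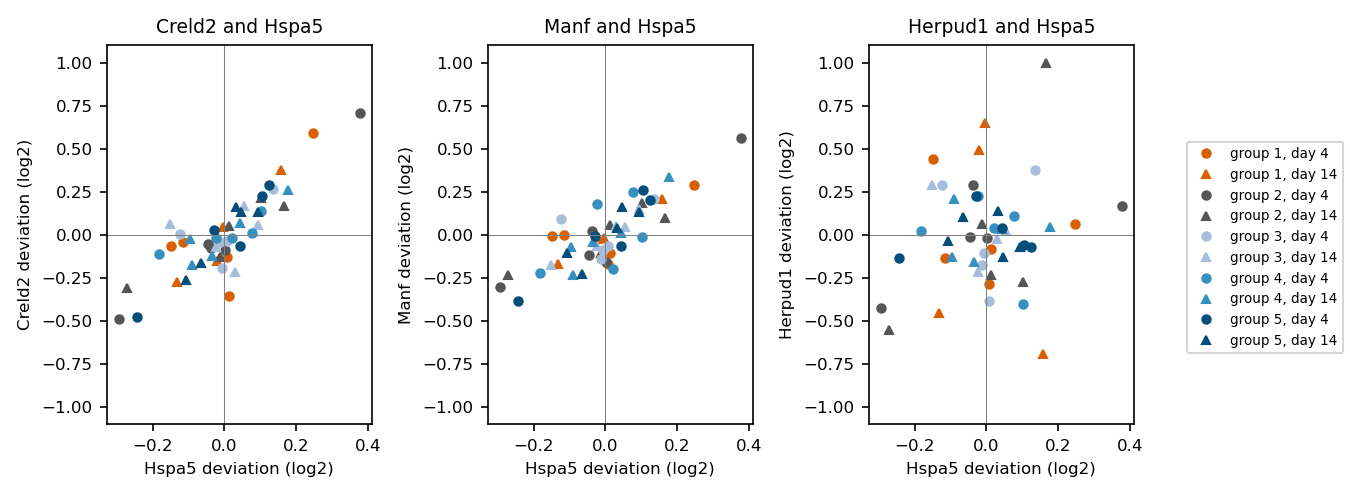
Deviation of Creld2, Manf and Herpud1 (vertical, log2) against that of Hspa5 (horizontal, log2) from the mean of the same group and day, 1 point per rat, with colour for group and shape for day. Creld2 and Manf follow Hspa5 with r = 0.84 and 0.83, and Herpud1 scatters with r = 0.16.

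The elements found in the promoter windows did not sort the members cleanly by these readouts. The 10 members with an ERSE or ERSE-II other than Hspa5 had a median r with Hspa5 of 0.55 (0.06 to 0.84), and the 22 with a window and neither element had a median of 0.43 (0.15 to 0.74). In fed against fasted rats at day 4, 6 of the 11 genes with an element were called higher and 1 lower, and 15 of the 22 without were called higher and 0 lower. In group 5 from day 4 to day 14, 5 of the 11 and 4 of the 22 were called lower, with medians of -0.23 and -0.16. These counts are descriptions, and no difference between the sets was tested.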

How the data were processed

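RNA from the livers of 49 rats was hybridised to Affymetrix whole-genome rat expression arrays, 1 per rat. The authors deposited RMA values as linear intensities in whole numbers, made per the labels and the submitters' processing notes with affy 1.38.1 in R 3.0.1 and checked in Expression Console. Arrays give no read depth, and their number limits the precision. Here the intensities were put on the log2 scale without further normalization. Of 31042 probe sets, 20826 carried 1 gene symbol, 436 several and 9780 none, and each of 14217 genes was read from its brightest probe set with that symbol alone. Where a member had several probe sets (13 of 39), the others were fitted separately.

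Groups came from the sample labels. Each comparison was fitted in limma 3.58.1 (R 4.3.3) from its own rats alone. P-values were adjusted by Benjamini-Hochberg over all 14217 genes, with values under 0.1 taken as calls. The study's own mixture model was not installed here, so limma took its place at the same threshold. The study's methods say that rats were kept in groups or in stable pairs, and the labels name no cage. Rats that shared a cage can therefore not be told apart from the others. Nor do the labels say that rats of a group were processed separately, so p-values measure the spread between these samples. The members, the other gene lists and the tests were chosen with earlier results of these data known. Values per rat are given for Hspa5, Xbp1, Atf6 and up to 4 called members with the largest change in each comparison with group 2 and each interaction. Up to 3 called genes with the largest change were to be named per pathway list. Other genes named there, such as Ostc, Sec11c and Vcp, were chosen after their values were seen. No pair of arrays held identical values. Fits and permutations were tested on simulated data. Promoter windows and elements came from RefSeq GRCr8 and were read with Python 3.11.15.

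The alternatives were the mean of all probe sets, only the 12586 genes above the dim level (the 20th percentile of gene means), quantile normalization, 1 fit of all groups, array weights and leaving out each rat. The rat numbers follow the order of deposit and do not pair rats, so no block was fitted.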

Additional observations from a re-analysis of the deposited data

Results flagged for a closer look

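In 4 of 150 sets of rats (15 named members in 10 groups), 1 rat lay far from the others of its group by Dixon's criterion, where chance flags about 1 in 20. In group 2 at day 4 the highest Hyou1 was 10.343, with the other rats at 9.49 to 9.676. In group 1 at day 14 the lowest Calr was 13.066, with the others at 13.117 to 13.122, a span small beside the difference from group 2. In group 4 at day 4 the highest Pdia6 was 12.486, with the others at 12.157 to 12.219. In group 5 at day 14 the lowest Derl2 was 10.842, with the others at 11.033 to 11.105.

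The change of group 5 from group 2 differed between the days for Ero1b, by -0.787 on the log2 scale, and for Sec63, by -0.438, in limma's test of the interaction with day.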

How the results depend on the processing

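Without each rat in turn, the number of members called in group 1 against group 2 ranged from 26 to 30 at day 4 and from 15 to 26 at day 14. Against group 2 at day 4 it ranged from 0 to 1 in group 3, 0 to 6 in group 4 and 4 to 15 in group 5, and at day 14 from 1 to 3, 4 to 7 and 5 to 11. For group 5 against group 1 it ranged from 16 to 21 and from 28 to 34, for the days within group 5 from 3 to 13, for the interaction of group 5 from 0 to 7, and for the trends from 11 to 19 and from 7 to 9. It stayed at 0 for the days within group 2 and the interactions of groups 1, 3 and 4. Array weights called 1 member in group 3 at day 4. In 1 fit of all groups, 6 were called in group 4 at day 4, 11 at day 14 (9 higher and 2 lower) and 5 in the interaction of group 5. Quantile normalization called 11 in group 4 at day 14, and the mean of all probe sets 0 in the interaction of group 5. The count of members correlated with Hspa5, 16 by Pearson's r, was 6 by Spearman's rho, 0 within day 4, 2 within day 14 and 3 without the 2 rats farthest from the median. The cause of these moves was not tested.

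Of 763 alternative values for 50 single-gene results, 682 kept their side of the threshold, 68 lost the call, 13 gained one and 0 turned a called direction. The 682 include changes of sign where neither value was called, as for Xbp1 in group 1 at day 4 (-0.064 to 0.162). Calls lost most often were Edem1 in group 5 at day 14 and Rpn2 in group 4 at day 4 (10 of 15 alternatives each), Xbp1 in group 5 at day 4 (8 of 15), Herpud1 and Derl2 in group 4 at day 4 (7 of 15 each), and the interaction of Sec63 (11 of 25, adjusted p from 0.0037 to 0.149). The interaction of Ero1b was lost in 2 of 25, at -0.35 (adjusted p = 0.172) with the mean of both probe sets. No paired analysis was possible because each rat was sampled once and belongs to a single group and day. All 39 members lay above the dim level.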
